A study of Schizosaccharomyces pombe with 10 samples.

Results

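Loss of Cph1 was followed in the fission yeast Schizosaccharomyces pombe by RNA sequencing of the cph1-delta strain beside wt, the parent it was made from. The comparison used 4 of the 10 libraries of the study, taken by their labels, with 2 cph1-delta and 2 wt libraries. The cph1-delta strain carried cph1-delta::KANMX, a replacement of the gene by a drug resistance cassette, in the dy1779 h- background with the alleles his3 d1, ura4-d18, leu1-32 and ade6-m216. The wt strain had the same mating type and the same 4 auxotrophic alleles, so every difference given here was measured between strains that shared them. The cph2-delta strain, set beside cph1-delta at the end, had the same background and cph2-delta::KANMX. The study also held wt2, an h- parent, and set2-delta made from it. Each genotype was represented by 1 strain, grown in 2xYES, a rich medium, at 30 °C and collected at an OD600 between 0.6 and 1.2. Nothing in the labels says that replicate libraries were separate cultures, so p-values measure only the spread between these libraries, which may be technical.

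Cph1 is a PHD finger protein of the histone deacetylase complex Clr6 complex II, which corresponds to Rpd3S in budding yeast. The complex follows elongating RNA polymerase II, where Set2 methylates lysine 36 of histone H3, and removes acetyl groups from nucleosomes behind the polymerase. In budding yeast its loss is known for cryptic transcription that starts inside genes. Here levels are given in CPM, counts relative to library size, scaled between libraries by TMM, the trimmed mean of M-values. They are shares of the RNA of a whole culture, so a change in some cells and a change in every cell cannot be told apart. Fold changes are log2 of cph1-delta over wt with their standard error (SE), and a gene was called higher or lower when its adjusted p was under 0.05. That p comes from the quasi-likelihood test of edgeR, adjusted by the method of Benjamini and Hochberg over all 5067 genes with enough counts, out of 7268 in the table.

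The deleted gene was at 4.32 and 2.64 CPM in cph1-delta libraries, from 52 and 33 counts, against 79.3 and 81.2 CPM in wt libraries, from 801 and 770 counts. Both cph1-delta libraries thus matched their label, with a log2 fold change of -4.53 ± 0.24 (edgeR adjusted p = 2.55e-06). The annotation gives cph1 as chromosome I, 799341 to 800981 in ASM294v2, and the non-coding RNA SPNCRNA.687 shares exon positions with it. Of 5 tested coding genes beside it, only pom2, a protein kinase gene, was called, with a log2 fold change of 0.83 ± 0.20 (edgeR adjusted p = 0.0335). The selectable gene ura4 had 0 counts in all cph1-delta and wt libraries.

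Assigned counts lay between 9711537 and 13051467 per library over the series and between 10030848 and 11778215 in the 4 libraries compared. The cph1-delta libraries differed more from each other than counting error allows, and so did the wt libraries, the chi-square divided by its degrees of freedom being 112 and 81.9. TMM factors were 1.02 and 1.25 in cph1-delta libraries, against 1 and 0.846 in wt libraries, so replicate 2 of each strain stood furthest from 1, in opposite directions. The 10 most abundant genes held 7.12% and 5.21% of counts in cph1-delta libraries, against 6.93% and 6.98% in wt libraries. Counts of calls in the gene lists described below are given with and without replicate 2 of either strain.

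Most called genes were higher in cph1-delta libraries, but the balance of directions differed between tools. DESeq2, a second tool, called 329 genes higher and 161 lower. By edgeR, 269 genes were higher and 16 were lower in cph1-delta than in wt libraries. These are 5.31% and 0.316% of the genes tested, or 5.62% together, and the calls described below are those of edgeR unless DESeq2 is named. A 2-fold difference was reached by 153 of the higher and 11 of the lower genes. The higher genes had a median of 87.5 CPM in cph1-delta and 42.8 CPM in wt, and a median log2 fold change of 1.07. In all 269 both cph1-delta libraries lay above both wt libraries, and in all 16 lower genes both lay below. Among all genes tested, the libraries were ordered in this way upward in 28.8% and downward in 23.1%. Separation of the strains thus held for every called gene and adds no support to a called gene named below. The other parent, wt2, carries no deletion of cph1, cph2 or set2. It differed from wt at ura4, with 142 and 142 CPM in wt2 libraries and 0 and 0 CPM in wt libraries. Both wt2 libraries also lay above both wt libraries in 88 of the 269 higher genes (32.7%), against 19.7% of all genes tested. They lay below in 7 of the 15 lower genes other than cph1, against 18.1%. These counts use the same wt libraries as the calls and are not independent of them.

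Replicate 2 gave the larger difference in most of the higher genes. Against the wt mean, the median log2 ratio of the higher genes was 0.97 in cph1-delta replicate 1 and 1.13 in replicate 2, and 192 of the 269 were larger in replicate 2. Over all genes tested, 212 were at least 2-fold above the wt mean in replicate 1 and 471 in replicate 2. Without wt replicate 2, 37 genes were called higher, all of them among the 269, and without cph1-delta replicate 2 there were 74, also all among them. Without wt replicate 1 there were 244, with 186 among the 269, and without cph1-delta replicate 1 there were 250, with 196 among them. Of the 16 lower genes, 3 were called without wt replicate 2 and 5 without cph1-delta replicate 2. A core of 35 higher and 2 lower genes was called without each of the 4 libraries in turn and also under offsets that followed gene level or exon length within each library. This core was defined after the values were seen and describes stability only over those alternatives. Every other called gene lost its call in at least 1 of those fits.

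**Figure D1:**
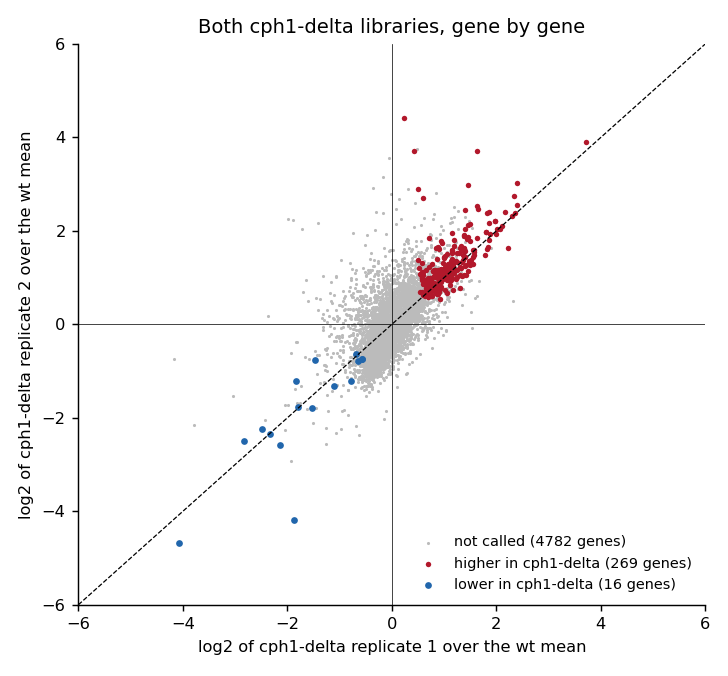
Each point is a gene tested, with the log2 ratio of cph1-delta replicate 1 over the wt mean on the horizontal axis and that of replicate 2 on the vertical axis; red points are the 269 higher genes, blue points the 16 lower genes and grey points genes not called, and the dashed line marks equal ratios. The called genes lie on the same side of 0 in both libraries, and 192 of the 269 red points lie above the dashed line.

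The gene with the smallest p among the higher genes was vps1301, which encodes a Vps13-family protein that carries lipids between membranes. It was at 95.3 and 96.1 CPM in cph1-delta libraries, against 20.5 and 17.5 CPM in wt libraries. The 2 pairs of values were far apart and close within each strain, and the log2 fold change was 2.33 ± 0.22 (edgeR adjusted p = 0.000614). Its relative vps1302 was at 175 and 170 CPM in cph1-delta libraries, against 67.0 and 49.4 CPM in wt libraries, a log2 fold change of 1.57 ± 0.19. The longest gene of the core was sib1, with 15022 bases of exon, which encodes the enzyme that assembles the iron carrier ferrichrome. It had 383 and 400 CPM in cph1-delta libraries, against 123 and 85.8 CPM in wt libraries. Its log2 fold change was 1.91 ± 0.21 (edgeR adjusted p = 0.00101).

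Other genes of the core act on chromosomes and in transcription. The Mediator subunit gene med13, part of the module that holds the Mediator kinase, was at 89.1 and 108 CPM in cph1-delta libraries, against 30.8 and 31.4 CPM in wt libraries (log2 fold change 1.66 ± 0.18, edgeR adjusted p = 0.00101). It was the only one of 18 tested Mediator genes called by edgeR (5.56%, against 5.31% over all genes). Of the 18, 5 were higher at an unadjusted p under 0.05 and DESeq2 called 2 higher. The DNA translocase gene rhp1602 was at 80.7 and 77.9 CPM in cph1-delta libraries, against 17 and 20.4 CPM in wt libraries. The telomere single-strand binding gene pot1, the survivin gene bir1 of the chromosomal passenger complex and puc1, a G1 cyclin gene, also belonged to the core, with log2 fold changes of 1.5 ± 0.19, 1.46 ± 0.18 and 1.27 ± 0.22. As in every called gene, the strains did not overlap in these 5.

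Metabolic and signalling members of the core included inv1, the secreted invertase that splits sucrose. Its level was 108 and 109 CPM in cph1-delta libraries, against 41.6 and 30.3 CPM in wt libraries, a log2 fold change of 1.59 ± 0.18. The pheromone pathway kinase gene byr2 was at 86.9 and 136 CPM in cph1-delta libraries, against 34.2 and 31.0 CPM in wt libraries, a log2 fold change of 1.77 ± 0.23. The 2 cph1-delta values of byr2 differed from each other, yet both exceeded the wt values. iml1, which encodes a subunit of the GATOR1 complex that restrains TORC1, rose by 1.28 ± 0.17 on the log2 scale, and gcn2, the kinase gene of the amino acid starvation response, by 1.07 ± 0.16. ecl1, a gene named for extending chronological lifespan, rose by 1.87 ± 0.24, and SPBC1773.13, an aromatic aminotransferase gene, by 2.15 ± 0.23. Counting took no account of strand. Of the core genes named so far, vps1302 and sib1 share no exon position with another gene, and the values of the others are uncertain, since reads at positions shared with a neighbour cannot be given to one of the genes. Of the genes given below with their values in each library, ago1, swi6, hrp3, pst2, cdc20, mis4, spc7, mek1, rec8, ste7, map4, myo52, sec71, ght5, pho1, SPAC186.02c, SPAC2H10.01 and rpl402 share none, and the same uncertainty holds for the other coding genes.

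**Figure D2:**
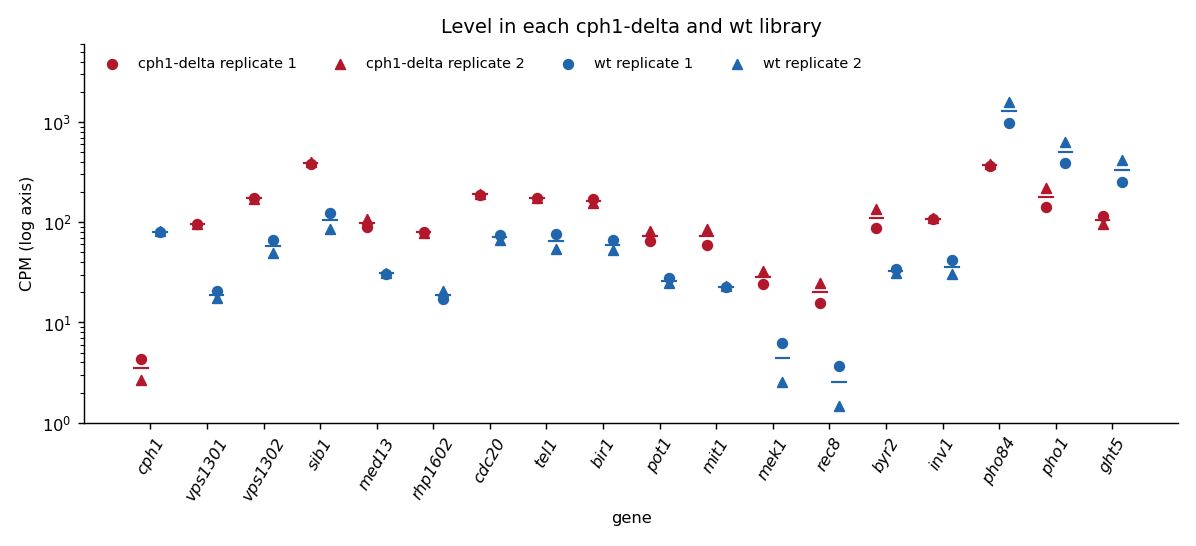
Level in CPM on a log axis for 18 genes in each library, with cph1-delta in red left of wt in blue, circles for replicate 1, triangles for replicate 2 and a short line at the mean of the 2 libraries. As in every called gene, the strains do not overlap for any gene shown, and wt replicates are furthest apart for mek1, at 6.24 and 2.53 CPM, and rec8, at 3.66 and 1.48 CPM.

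The higher genes were long. Their median exon length was 3136 bases, against 1763 bases over all genes tested. Among coding genes split into quintiles by exon length, 146 of 882 (16.6%) were higher in the longest quintile, with 2985 to 15022 bases, against 6 of 882 (0.68%) in the shortest, with 99 to 1142 bases. The order held at each level of expression where many genes were called. In the middle quintile of level, 29.3% of 198 long genes were higher against 0.885% of 113 short ones, and in the second quintile 23.2% of 112 long genes against 0% of 186 short ones. Coding genes with 5 or more exons were higher in 14.5% of 296, against 4.83% of 1883 with 2 to 4 exons and 5.38% of 2230 with 1 exon. Whether exon number differs among genes of like exon length was not tested, so this may restate length. Gene lists described below also differed in length. Median exon length was 4233 bases for SNF2-family and CHD remodellers, 2971 for cohesin and condensin, 2882 for repair and 2881 for heterochromatin. It was 1995 bases for telomere and 1612 for kinetochore genes. Whether the share of calls in a list exceeds that of other genes of like length was not tested. The number of long genes called moved with the libraries used. In the longest quintile it was 25 without wt replicate 2, 50 without cph1-delta replicate 2, 101 with the offset that followed level and 65 with the offset that followed length, which by construction removes any shift shared by genes of the same length.

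**Figure D3:**
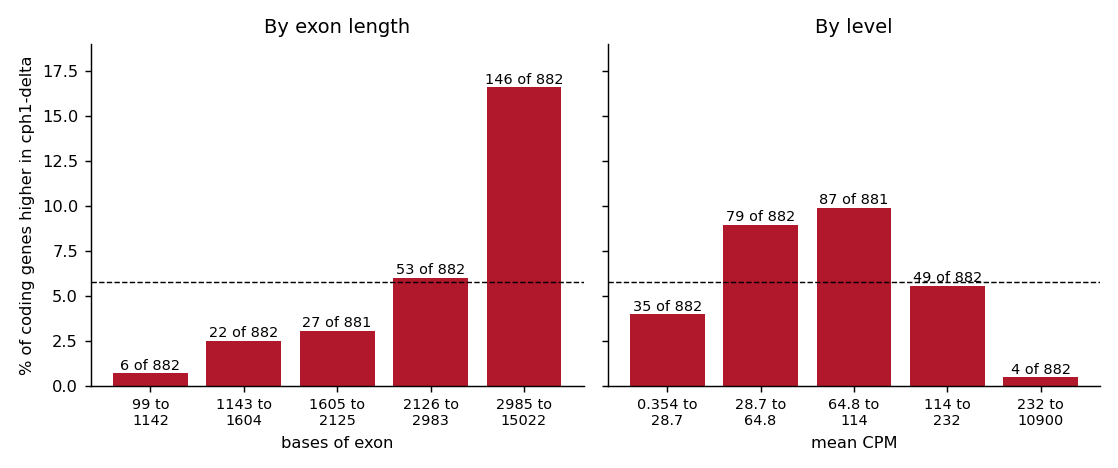
Bars give the percentage of coding genes higher in cph1-delta in each quintile of exon length (left) and of mean CPM over the 10 libraries (right), with the number higher and the number tested above each bar, and the dashed line marks 5.76%, the share over all coding genes. The longest quintile stands at 16.6% and the most abundant quintile at 0.454%.

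The fold change also varied with the level of a gene. Among coding genes split into quintiles by mean CPM over the 10 libraries, a scale that is not corrected for length, the median log2 fold change was 0.25 in the least abundant quintile and -0.40 in the most abundant. In replicate 1 these medians were 0.10 and -0.24, and in replicate 2 they were 0.32 and -0.60, both against the wt mean. The wt libraries differed from each other along the same axis, wt replicate 2 over wt replicate 1 having a median log2 ratio of -0.12 in the least and 0.26 in the most abundant quintile. With 2 libraries per strain, the deletion and differences between libraries cannot be told apart as the source of this shift. Under the offset that followed level, 153 genes were called higher, 150 of them among the 269.

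**Figure D4:**
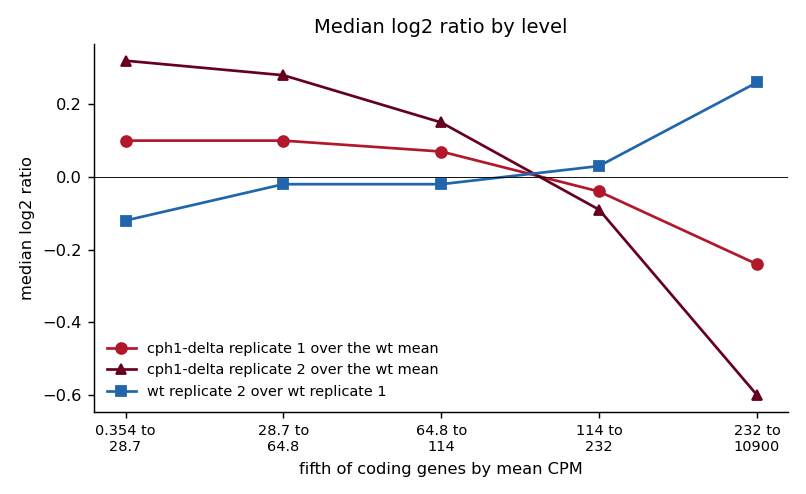
Median log2 ratio of coding genes in each quintile of mean CPM, for cph1-delta replicate 1 and replicate 2, each over the wt mean, and for wt replicate 2 over wt replicate 1. Replicate 2 of cph1-delta spans 0.32 to -0.60 and replicate 1 spans 0.10 to -0.24, while the wt line runs the other way, at -0.12 and 0.26 at its ends.

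Genes that maintain heterochromatin held the highest share of calls among lists with 10 or more tested members. Of 21 tested genes of RNA interference and heterochromatin, 10 were higher (47.6%, against 5.31% over all genes), with a list median log2 fold change of 0.75 against 0.02 over all genes tested. The 10 included dcr1 (Dicer, which cuts double-stranded RNA), rdp1 and hrr1 (the RNA-directed polymerase and its helicase partner), arb2 (an Argonaute-binding protein), ers1 and dsh1 (silencing factors), and clr1, mit1 and chp2 (of the SHREC deacetylase and its chromodomain partner).

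Dicer was at 104 and 107 CPM in cph1-delta libraries, against 52.8 and 46.5 CPM in wt libraries. rdp1 was at 143 and 170 CPM in cph1-delta libraries, against 78.3 and 72.4 CPM in wt libraries. The log2 fold changes of the 2 genes were 1.08 ± 0.16 and 1.06 ± 0.18 (edgeR adjusted p = 0.00345 and 0.00594). mit1 was at 59.8 and 85.4 CPM in cph1-delta libraries, against 22.4 and 23 CPM in wt libraries. It belonged to the core, with a log2 fold change of 1.68 ± 0.24. The Argonaute gene ago1, at 107 and 130 CPM in cph1-delta against 101 and 90.0 CPM in wt, was not called, nor was swi6, the main HP1 gene, at 83.6 and 97.7 CPM in cph1-delta against 105 and 95.0 CPM in wt. Without wt replicate 2 the count of this list was 2 and without cph1-delta replicate 2 it was 3. Only chp2 among the 10 shares no exon position with another gene.

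Among nucleosome remodellers the SNF2-family and CHD list had the highest share of calls. Of 10 tested SNF2-family and CHD remodellers, 4 were higher (40%), namely rhp1602, mit1 (also counted above), hrp3 and fft2. Without wt replicate 2 or without cph1-delta replicate 2 the list had 2 higher calls. hrp3, a CHD remodeller that spaces nucleosomes in gene bodies, was at 151 and 250 CPM in cph1-delta libraries, against 117 and 84.2 CPM in wt libraries, with a log2 fold change of 0.99 ± 0.24. The 2 cph1-delta values were unequal. The other remodeller and coactivator lists were nearer the 5.31% over all genes. None of 16 SWI/SNF and RSC genes was called by edgeR, 1 passed an unadjusted p of 0.05, and none was called by DESeq2. Of 23 INO80 and SWR1 genes, ino80 and arp8 were higher (8.7%), and of 27 SAGA and TFIID genes, which act on promoters as coactivators, spt7, taf2 and tra1 (11.1%). Both lists had 0 calls without wt replicate 2 and 0 without cph1-delta replicate 2. Among the other members of Clr6 complex II and Set2, pst2, its Sin3-family subunit, was at 192 and 231 CPM in cph1-delta libraries, against 123 and 123 CPM in wt libraries (log2 fold change 0.78 ± 0.16, edgeR adjusted p = 0.0171). With 1 library left out pst2 was called without cph1-delta replicate 1 and not called without any of the other 3. clr6, alp13, cph2 and set2 were not called, with log2 fold changes of 0.15 ± 0.18, 0.40 ± 0.21, 0.35 ± 0.32 and 0.47 ± 0.15.

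DNA replication and repair lists each had 11 higher genes, and most of their members were not called. Of 57 replication genes tested, 11 were higher (19.3%) and 1 was lower, and of 56 repair and checkpoint genes 11 were higher (19.6%), against 5.31% over all genes. The list medians were 0.25 and 0.41 on the log2 scale. Median exon lengths of the 2 lists were 2144 and 2882 bases, against 1763 over all genes tested. cdc20, the catalytic subunit of DNA polymerase epsilon, was at 187 and 192 CPM in cph1-delta libraries, against 75.3 and 66.0 CPM in wt libraries. pol1, that of DNA polymerase alpha, was at 149 and 154 CPM in cph1-delta libraries, against 76.6 and 79.4 CPM in wt libraries. Replicates were close in both, with log2 fold changes of 1.42 ± 0.18 and 0.96 ± 0.15 (edgeR adjusted p = 0.00195 and 0.00515). The other higher replication genes were cdc24, the origin recognition genes orc3 and orc4, the clamp loader genes rfc1 and elg1, dna2, top1, top2 and the RecQ helicase gene rqh1. abp2, which encodes an origin-binding protein, went the other way, at 65.3 and 56.1 CPM in cph1-delta libraries against 106 and 178 CPM in wt libraries, and was not called without wt replicate 2 or without cph1-delta replicate 2.

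Among repair genes, tel1, the ATM kinase gene of the damage checkpoint, was at 173 and 176 CPM in cph1-delta libraries, against 76.2 and 53.7 CPM in wt libraries (log2 fold change 1.43 ± 0.20, edgeR adjusted p = 0.00273). fml1, a helicase gene related to FANCM, was at 107 and 95.8 CPM in cph1-delta libraries, against 41.4 and 38.4 CPM in wt libraries. Both belonged to the core. rad13, an excision repair nuclease gene, was at 92.5 and 81.4 CPM in cph1-delta libraries, against 45.3 and 39.1 CPM in wt libraries, a log2 fold change of 1.04 ± 0.19. The remaining calls were rad50 (of the complex that handles broken ends), rev3 (translesion polymerase zeta), rad16 (another excision nuclease), msh3 (mismatch repair), rad54 (recombination), lig4 and pku80 (end joining) and rad4 (checkpoint adaptor), between 0.83 and 1.90 on the log2 scale. Without wt replicate 2 the replication list had 1 call and the repair list 2, and without cph1-delta replicate 2 they had 2 and 5.

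In lists of chromosome structure and segregation all calls were higher, though most members were not called. Of 24 genes of cohesin, condensin and the Smc5-6 complex, 8 were higher (33.3%, against 5.31% over all genes), among them mis4 (the cohesin loader), cut1 (separase, which opens cohesin), smc5, and the condensin genes cut3 and cnd2. The rest were top2, also counted with replication, and rec8 and rec11, counted again with meiotic genes below. Of 40 kinetochore and centromere genes 7 were higher (17.5%), and of 16 telomere genes 4 (25%), namely pot1, rap1, ccq1 and trt1, the telomerase reverse transcriptase. mis4 was at 132 and 181 CPM in cph1-delta libraries, against 79.6 and 47.3 CPM in wt libraries. spc7, a gene of the outer kinetochore, was at 107 and 145 CPM in cph1-delta libraries, against 49.8 and 46.6 CPM in wt libraries. The log2 fold changes of mis4 and spc7 were 1.30 ± 0.25 and 1.39 ± 0.20. rap1 and trt1 rose by 1.21 ± 0.19 and 0.94 ± 0.18 on the log2 scale. The cohesin and condensin list had 0 calls without wt replicate 2 and 0 without cph1-delta replicate 2, the kinetochore list 1 and 3, and the telomere list 1 and 2.

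Meiotic genes, kept low in growing cells, gave several of the largest fold changes. Of 15 tested genes of the meiotic chromosome axis and recombination 5 were higher (33.3%, against 5.31% over all genes), with a list median of 1.09 on the log2 scale. They were mek1 (a meiotic checkpoint kinase), rec8 and rec11 (meiotic cohesin subunits), rec10 (the axis protein) and rdh54 (a strand exchange translocase). Upstream sequence is shown for 4 called genes whose 250 bases before the gene start hold a match to a searched element, because the elements are known from meiotic or stress genes. These 4 were chosen after their matches and fold changes were seen, and support nothing by themselves. The sequences are those of RefSeq's genome and annotation, build ASM294v3, each printed 5′ to 3′ toward the gene start. Those of rec11 (chrIII:1226969-1227218, minus strand), mug73 (chrIII:624528-624777, minus strand) and mug170 (chrIII:2394425-2394674, plus strand) come from higher genes, and that of pho84 (chrII:4443851-4444100, plus strand) from a lower gene. Capitals mark ACGCGT, known to be bound by MBF, and GTAAACAA, known to be bound by the meiotic forkhead factor Mei4, in rec11, where CCCCT, a stress element, is also marked on the other strand, GTAAACAA on the other strand in mug73 and on the given strand in mug170, and TGACGT, known to be bound by Atf1, on the other strand in pho84.
rec11: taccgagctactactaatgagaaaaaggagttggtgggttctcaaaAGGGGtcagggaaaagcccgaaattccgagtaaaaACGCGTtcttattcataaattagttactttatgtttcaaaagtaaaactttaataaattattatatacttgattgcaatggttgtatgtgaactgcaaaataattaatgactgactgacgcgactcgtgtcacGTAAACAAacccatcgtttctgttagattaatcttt
mug73: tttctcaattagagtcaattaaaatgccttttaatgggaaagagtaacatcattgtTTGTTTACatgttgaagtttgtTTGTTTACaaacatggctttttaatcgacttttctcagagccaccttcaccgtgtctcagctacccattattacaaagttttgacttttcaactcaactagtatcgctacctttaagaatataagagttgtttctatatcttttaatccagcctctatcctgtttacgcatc
mug170: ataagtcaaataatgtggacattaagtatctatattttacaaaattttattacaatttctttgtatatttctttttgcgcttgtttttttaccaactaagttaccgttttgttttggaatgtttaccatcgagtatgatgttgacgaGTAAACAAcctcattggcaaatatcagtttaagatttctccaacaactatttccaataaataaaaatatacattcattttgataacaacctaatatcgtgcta
pho84: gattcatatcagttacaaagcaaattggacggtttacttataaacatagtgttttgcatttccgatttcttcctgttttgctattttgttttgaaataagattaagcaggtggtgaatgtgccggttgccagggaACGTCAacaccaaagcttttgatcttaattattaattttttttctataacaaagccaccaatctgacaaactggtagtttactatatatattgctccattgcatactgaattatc

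Over all promoters, each element was found before a minority of the higher genes. In windows from 250 bases before to 50 bases after the gene start, on both strands, GTAAACAA was present in 11% of 254 higher coding genes, against 9.53% of 4408 coding genes tested. ACGCGT was present in 3.54% against 3.13%, TGACGT in 4.72% against 5.78%, and TTCTTTGTT, known to be bound by the mating regulator Ste11, in 3.15% against 1.97%. CCCCT was present in 7.48% of higher genes against 10.4%, and CAGTCACA, the HomolD box of ribosomal protein genes, in 0.787% against 2.68%. Among the 16 lower genes TGACGT was present in 3 (18.8%), CCCCT in 4 (25%), GTAAACAA in 2 (12.5%), ACGCGT in 1 (6.25%) and TTCTTTGTT and CAGTCACA in 0. A match is a run of letters, not a measured site.

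rec8 was at 15.6 and 24.5 CPM in cph1-delta libraries, against 3.66 and 1.48 CPM in wt libraries, a log2 fold change of 2.95 ± 0.49 (edgeR adjusted p = 0.00575). mek1 was at 24.3 and 32.3 CPM in cph1-delta libraries, against 6.24 and 2.53 CPM in wt libraries, a log2 fold change of 2.68 ± 0.41. Both cph1-delta libraries exceeded both wt libraries, though wt replicate 2 lay well below wt replicate 1 in both genes. rec11, whose upstream bases are printed above, was at 12.4 and 26.1 CPM in cph1-delta libraries, against 5.54 and 3.27 CPM in wt libraries. rec10 was at 70.1 and 81.9 CPM in cph1-delta libraries, against 28.1 and 16.7 CPM in wt libraries. The list had 0 calls without wt replicate 2 and 1 without cph1-delta replicate 2. rec8 and mek1 share no exon position with another gene.

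Of 27 tested genes of meiotic regulators and sporulation 6 were higher (22.2%, against 5.31% over all genes), with a list median of 0.85. They were spo13, spo5, ssm4, isp6, fkh2 and pat1. spo5, an RNA-binding protein gene of meiosis, rose by 2.25 ± 0.50 on the log2 scale, spo13, needed to form the spore membrane, by 2.22 ± 0.43, and ssm4, a dynactin gene of meiotic nuclear movement, by 2.16 ± 0.48. pat1, the kinase gene that holds cells out of meiosis, was higher too, at 97.5 and 71.7 CPM in cph1-delta libraries against 46.6 and 38.9 CPM in wt libraries. Genes of opposite roles in meiosis thus appear in the same count. Among the mug and meu genes, named for their higher level in meiosis, 11 of 80 were higher (13.8%), with a median of 0.32. mug73 and mug170, also printed above, rose by 1.23 ± 0.28 and 0.94 ± 0.19.

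Of 28 mating and pheromone response genes 5 were higher (17.9%, against 5.31% over all genes), namely byr2, sxa2 (a protease that degrades a pheromone), the adhesion genes map4 and mam3, and ste7. ste7 was at 47.5 and 47.7 CPM in cph1-delta libraries, against 23.6 and 19.1 CPM in wt libraries, and map4 at 101 and 97.8 CPM in cph1-delta libraries, against 41.2 and 50.6 CPM in wt libraries. The log2 fold changes of ste7 and map4 were 1.16 ± 0.25 and 1.12 ± 0.20. Both strains carried the h- mating type per the labels, and map4 and mam3 are adhesins of opposite mating types. Without wt replicate 2 the sporulation list had 0 calls, the mating list 1 and the mug and meu list 1; without cph1-delta replicate 2 they had 1, 1 and 4.

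**Figure D5:**
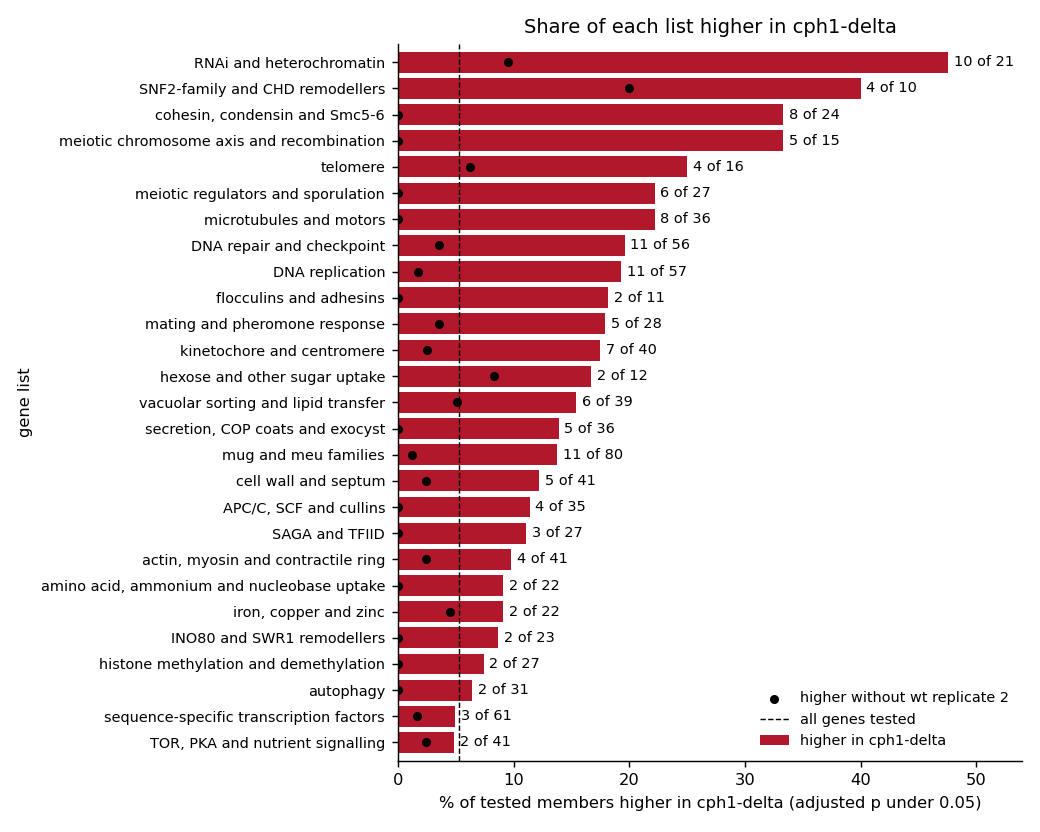
Bars give the percentage of tested members higher in cph1-delta for each list with 10 or more tested members and 2 or more higher, with counts beside the bars; black dots give the percentage without wt replicate 2 and the dashed line marks 5.31%, the share over all genes tested. RNA interference and heterochromatin stands first at 47.6%, and 2 of its 21 members are called without that library.

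Genes for motors and the cytoskeleton were higher in part. Of 36 microtubule and motor genes 8 were higher (22.2%, against 5.31% over all genes). Among them were mto1 and alp6, which nucleate microtubules with gamma-tubulin, the kinesin-14 genes klp2 and pkl1, and the meiotic dynein genes dic1 and dli1. Of 41 actin, myosin and ring genes 4 were higher (9.76%). myo51 and myo52, the type V myosins that carry cargo on actin cables, were at 180 and 171 CPM and at 115 and 121 CPM in cph1-delta libraries, against 83.8 and 67.2 CPM and 48.2 and 58.9 CPM in wt libraries. myo2 and cdc12, the myosin II and formin genes of the contractile ring, rose by 0.89 ± 0.15 and 0.78 ± 0.17 on the log2 scale. Without wt replicate 2 these lists had 0 and 1 calls, and without cph1-delta replicate 2 they had 0 and 2. The medians of the lists were 0.31 and 0.09.

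Membrane traffic genes had calls in 2 lists. Of 39 vacuolar sorting and lipid transfer genes 6 were higher (15.4%, against 5.31% over all genes), namely vps1301, vps1302, vps3, vps15, vps16 and vps54. Of 36 secretion genes 5 were higher (13.9%). These 5 were the exocyst genes sec6, sec8 and sec10 and the Sec7-domain genes sec71 and sec72. sec71 was at 189 and 200 CPM in cph1-delta libraries, against 104 and 88.5 CPM in wt libraries. sec72 was at 213 and 472 CPM in cph1-delta libraries, against 133 and 127 CPM in wt libraries, its excess resting mostly on replicate 2. The secretion list as a whole had a median of -0.17, opposite in sign to its calls. Of its 36 members 13 lay above both wt libraries and 13 below both, against 28.8% and 23.1% of all genes tested. The secretion list had 0 calls without wt replicate 2 and 0 without cph1-delta replicate 2, and the vacuolar list had 2 and 2.

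Of 41 tested wall and septum genes 5 were higher (12.2%, against 5.31% over all genes), all of them synthase genes. The alpha-glucan synthase gene mok11 was at 311 and 368 CPM in cph1-delta libraries, against 129 and 116 CPM in wt libraries (log2 fold change 1.48 ± 0.20, edgeR adjusted p = 0.00283). mok12, a spore wall relative, was at 162 and 277 CPM in cph1-delta libraries, against 91.4 and 73.5 CPM in wt libraries. mok14 and bgs2, for other spore wall glucans, and chs1, a chitin synthase gene, rose by 0.85 ± 0.18, 0.76 ± 0.15 and 0.63 ± 0.16 on the log2 scale. The list median was 0.02, and 1 member was called without wt replicate 2, the same number as without cph1-delta replicate 2.

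Nutrient genes had a few calls in each direction. Of 12 sugar uptake and processing genes, inv1 and the maltase gene agl1 were higher (16.7%), and ght5, the high-affinity hexose transporter, was lower. agl1 was at 121 and 128 CPM in cph1-delta libraries, against 54.1 and 46.5 CPM in wt libraries. ght5 was at 116 and 95.9 CPM in cph1-delta libraries, against 253 and 417 CPM in wt libraries, a log2 fold change of -1.66 ± 0.32 (edgeR adjusted p = 0.0129). ght5 was not called without wt replicate 2 or without cph1-delta replicate 2, where the list had 1 and 2 higher calls. Another alpha-glucosidase gene, gto2, belonged to the core and rose by 1.18 ± 0.17 on the log2 scale. Of the nutrient signalling list of 41, gcn2 and cyr1, the adenylate cyclase gene, were higher and igo1, an inhibitor gene of protein phosphatase 2A, was lower. In that list gcn2 was the 1 call left without wt replicate 2, and also without cph1-delta replicate 2. The amino acid permease genes per1 and isp5 were higher, 2 of 22 in their list, as were sib1 and the metallothionein gene zym1, 2 of 22 in the list for iron, copper and zinc. These shares, 4.88% higher in the signalling list and 9.09% in each of the other 2, were near the 5.31% over all genes. The permease list had 0 calls and the metal list 1, sib1, without wt replicate 2 or without cph1-delta replicate 2.

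Phosphate acquisition had the most lower calls of the 51 lists described, 2 of 12 tested genes, with none higher. Over all genes tested 0.316% were lower. pho84, the phosphate transporter whose upstream bases are printed above, was at 367 and 377 CPM in cph1-delta libraries, against 972 and 1591 CPM in wt libraries. pho1, the secreted acid phosphatase, was at 142 and 219 CPM in cph1-delta libraries, against 386 and 625 CPM in wt libraries. The cph1-delta libraries lay below wt in both, with log2 fold changes of -1.78 ± 0.29 and -1.48 ± 0.29 (edgeR adjusted p = 0.00548 and 0.0129). The wt libraries themselves differed, replicate 2 being the higher in pho84, pho1 and ght5. Without wt replicate 2 the phosphate list had 0 calls, and without cph1-delta replicate 2 it had 2.

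The other lower genes were few. SPAC186.02c, a dehydrogenase gene at chromosome I, 5529851 to 5531144, was the second lower gene of the core beside cph1. It had 0.166 and 0.160 CPM in cph1-delta libraries, from 2 counts each, against 2.57 and 3.16 CPM in wt libraries, from 26 and 30 counts, a log2 fold change of -4.05 ± 0.58 (edgeR adjusted p = 0.00303). SPBPB10D8.01, a cysteine transporter gene, was at 10.8 and 7.83 CPM in cph1-delta libraries, against 61.7 and 37.4 CPM in wt libraries. pfl7, a gene of a surface glycoprotein family, was at 6.4 and 0.879 CPM in cph1-delta libraries, against 25 and 24.3 CPM in wt libraries. These 3 genes were low in both cph1-delta libraries, though the 2 values of pfl7 differed widely. SPAC750.06c, emc5, ppk29, hmt2, erg24 and SPACUNK4.15 made up the rest with SPAC2H10.01, a transcription factor gene. SPAC2H10.01 was at 53.8 and 64.4 CPM in cph1-delta libraries, against 75.1 and 535 CPM in wt libraries, so the wt values were themselves far apart.

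Regulators of transcription and of protein turnover were called near or somewhat above the background share. Of 61 sequence-specific transcription factor genes 3 were higher (4.92%), with a list median of -0.06. They were klf1, thi5 (named for thiamine genes) and fkh2, a forkhead gene of the cell cycle. fkh2 was at 111 and 132 CPM in cph1-delta libraries, against 81.3 and 53.2 CPM in wt libraries, a log2 fold change of 0.85 ± 0.21. Of 35 genes of the anaphase-promoting complex, SCF ligases and cullins 4 were higher (11.4%, against 5.31% over all genes). They were knd1 (which exchanges cullin substrate receptors), pof13 (an F-box protein gene), apc5 and cut23. knd1 was at 117 and 131 CPM in cph1-delta libraries, against 60.3 and 49.8 CPM in wt libraries, a log2 fold change of 1.17 ± 0.17. The transcription factor list had 1 call and the ligase list 0 without wt replicate 2, and each had 1 without cph1-delta replicate 2. Of 53 spliceosome genes only prp16, a helicase gene, was called (1.89%, against 5.31% over all genes), while 10 were higher at an unadjusted p under 0.05. prp16 had a log2 fold change of 0.95 ± 0.19 and was not called without wt replicate 2 or without cph1-delta replicate 2.

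Several housekeeping lists had no calls by edgeR and a median below 0. None of 111 cytosolic ribosomal protein genes was called by edgeR, while 32 were lower at an unadjusted p under 0.05 and DESeq2 called 17 lower. Their median log2 fold change was -0.57, at -0.28 in replicate 1 and -0.92 in replicate 2. Of the 111 genes, 70 lay below both wt libraries, against 23.1% of all genes tested. Under the offset that followed level the median was -0.08. The large-subunit gene rpl402 was at 4943 and 2803 CPM in cph1-delta libraries, against 5007 and 7735 CPM in wt libraries. Its cph1-delta replicate 1 and wt replicate 1 were close, and the gap lay between the libraries numbered 2. Histone genes (0 of 9 called by edgeR, 4 lower at an unadjusted p under 0.05, 4 lower by DESeq2) and purine synthesis genes (0 of 12, 6 and 5) had medians of -0.52 and -0.60, which were -0.16 and -0.28 under that offset. None of 16 heat shock chaperone genes was called by edgeR, 3 were lower at an unadjusted p under 0.05 and DESeq2 called 2 lower. Their median was -0.40, which was 0.00 under that offset, and 7 of the 16 lay below both wt libraries, against 23.1% of all genes tested. The TCA cycle list had 0 of 16 called by edgeR, 4 lower at an unadjusted p under 0.05 and 2 lower by DESeq2, with a median of -0.38, which was -0.05 under that offset. RNA polymerase subunit genes had 0 of 27 called by edgeR, 2 lower at an unadjusted p under 0.05 and 0 called by DESeq2. Of these 27 genes, 9 lay below and 5 above both wt libraries, against 23.1% and 28.8% of all genes tested.

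Non-coding RNAs were rarely called. Of 584 long non-coding RNAs tested 9 were higher (1.54%, against 5.31% over all genes). Many of the 584 were at a few CPM or less with large standard errors, so the low share of calls does not show that they changed less. The median log2 fold change of all 584 was 0.31, and it was -0.0 under the offset that followed level. Against the wt mean their median was 0.05 in replicate 1 and 0.36 in replicate 2. SPNCRNA.234, which shares no exon position with another gene, was at 13.8 and 15.7 CPM in cph1-delta libraries, against 0 and 1.16 CPM in wt libraries. SPNCRNA.1153 was at 6.98 and 134 CPM in cph1-delta libraries, against 6.93 and 4.75 CPM in wt libraries, so its call rested on replicate 2. Poly(A) selection and counting without strand limit what can be seen of antisense transcripts. Of 24 pseudogenes 4 were higher (16.7%, against 5.31% over all genes), 2 of them copies of the wtf family, wtf8 and wtf24. Among copies of the Tf2 retrotransposon, Tf2-2, Tf2-8 and Tf2-11 were called higher, while Tf2-1, Tf2-4, Tf2-5 and Tf2-6 were tested and not called. Levels were low, with means of 10.4 CPM in cph1-delta against 2.57 CPM in wt for Tf2-2 and 5.12 against 0.557 CPM for Tf2-8. Values of these near-identical copies are uncertain, as are those of tlh2, a helicase gene with close copies, at 24.7 and 107 CPM in cph1-delta libraries against 11.5 and 3.8 CPM in wt libraries.

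The higher genes were spread over the genome. They were 5% of genes tested on chromosome I, 4.52% on chromosome II and 7.53% on chromosome III. Of 254 higher coding genes, 18 lay directly beside another one, in 9 pairs and no longer run. The pairs were mkh1 with sro7, prh1 with rqh1, SPAC4H3.03c with SPAC4H3.04c, tms1 with adh8, spo2 with vps1302, vps3 with coy1, spc7 with pma2, SPCC162.03 with SPCC162.02c, and set11 with spc19. Of the 269 higher genes, 172 share exon positions with another gene and 97 do not. Among coding genes the share called higher was 6.18% of those that share positions and 5.13% of those that do not.

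The cph1-delta strain was also set against cph2-delta, which lacks the other PHD finger subunit of the complex. Of 5067 genes 3 (0.0592%) were called between them by edgeR, while 351 passed 0.05 without adjustment and 15 were called by DESeq2. Of the 3, cph1 and cph2 were the deleted genes themselves. The third was SPBC23G7.14, an uncharacterised gene at chromosome II, 2126496 to 2128132, which shares exon positions with SPBC23G7.15c. It was at 60.1 and 56.5 CPM in cph1-delta libraries, against 147 and 214 CPM in cph2-delta libraries, a log2 difference of -1.63 ± 0.23 (edgeR adjusted p = 0.0301). In wt libraries it was at 48.1 and 42.4 CPM.

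Apart from cph1, none of the 284 genes called between cph1-delta and wt was called by edgeR between cph1-delta and cph2-delta, while 18 had an unadjusted p under 0.05 and 4 were called by DESeq2. Their log2 difference between the deletions had a median of 0.05 and quartiles of -0.08 and 0.22. A call missed in this design does not show that the strains were alike. For vps1301 the difference was 0.08 ± 0.20, with 104 and 77.4 CPM in cph2-delta libraries, and for rec8 it was 0.36 ± 0.43, with 16.5 and 14.7 CPM there. For pho84 it was 0.16 ± 0.28, with 327 and 340 CPM in cph2-delta libraries. The difference was widest among the genes named here for SPAC186.02c, at -0.70 ± 0.74 from a few counts per library, and ght5, at -0.60 ± 0.32, with 120 and 200 CPM in cph2-delta libraries. Each deletion was set against the same 2 wt libraries in the study, so their fold changes against wt are not independent of each other.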

How the data were processed

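Poly(A)-selected RNA was sequenced by the authors on an Illumina NovaSeq instrument, per the labels' protocols. Per the submitters' processing notes, the tools named were STAR 2.7.10a, SAMtools 1.16.1, Picard, Subread 2.0.1 with featureCounts, edgeR 3.38.4 and DESeq2 1.36.0, on genome build ASM294v2. The deposited table held unnormalized read counts of each gene and its exon length. featureCounts was run, per the file headers, with no option for strand or multi-mapping reads, so reads of overlapping genes and near-identical copies were largely left unassigned.

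All 10 libraries were fitted together by group with edgeR 4.0.16 (limma 3.58.1, R 4.3.3), after filterByExpr and TMM scaling, without a replicate block and with 5 residual degrees of freedom. The 2201 genes removed held 0.0105% of the counts, and edgeR's common biological coefficient of variation stood at 0.211. Names came from a RefSeq table, which matched 6862 of 7268 identifiers and left 406. Upstream sequences were read from RefSeq's genome by its own annotation (ASM294v3) and not joined to coordinates of the files.

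The members and the 51 gene lists were chosen with earlier results of these data known. Some genes belong to more than 1 list, so the counts of the lists overlap. Symbols in a list that name a different fission yeast gene were removed. Named were cph1, cph2, set2, marker genes and neighbours of cph1; in each direction, among called genes with separate libraries and at least 5 CPM, the 20 largest changes, 20 smallest p-values and 10 highest levels; all lower genes; called members of lists and up to 4 others by level; and neighbouring called pairs. Not every gene that the rule took is printed. Pairing of replicate numbers was checked by the correlation of same-numbered deviations, which was -0.413 between wt and cph1-delta, -0.161 between cph1-delta and cph2-delta, 0.23 between wt and cph2-delta and 0.264 between wt2 and set2-delta. Alternatives were RLE scaling, DESeq2 1.42.0, no filter, only the libraries compared, offsets following level or exon length, a robust prior, a replicate block and leaving out each library.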

Additional observations from a re-analysis of the deposited data

Results flagged for a closer look

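The difference between cph1-delta and cph2-delta passed the test for 3 genes. The log2 difference of cph1-delta minus cph2-delta was -5.20 for cph1 and 5.09 for cph2, each the gene that 1 of the strains lacks. It was -1.63 for SPBC23G7.14, an uncharacterised gene at 60.1 and 56.5 CPM in cph1-delta libraries, against 147 and 214 CPM in cph2-delta libraries.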

How the results depend on the processing

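The 285 called genes kept their direction under the alternatives run, DESeq2 giving 2 of them a fold change but no adjusted p. Of the genes named that were not called, cph2, at 0.35, was at -0.01 without cph1-delta replicate 2 and 0.64 without cph1-delta replicate 1. The number called between cph1-delta and wt, 285 by the edgeR fit, was 173 with an offset that followed level, 173 with one that followed exon length, 168 with only the 4 libraries compared and 490 with DESeq2. Leaving out 1 library gave 41 to 311. The number called higher, 269, was 153, 146 and 152 in the first 3 of these, with 150, 146 and 145 of them among the 269, and 37 to 250 when 1 library was left out, with 37 to 196 among the 269, the lowest without wt replicate 2. DESeq2 called 329 higher and 161 lower, against 269 and 16 by edgeR, so the balance of directions differed between the tools, and the cause was not tested. The number called lower, 16, was 40 with no filter and 27 with the length offset, and 4 to 67 with 1 library left out. Between cph1-delta and cph2-delta the 3 calls became 8 with no filter, 15 with DESeq2 and 2 to 26 with 1 library left out.

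With the replicate block 260 genes were called, 247 higher and 13 lower. Correlations of same-numbered deviations differed in sign between pairs of strains and were negative for wt with cph1-delta, so the numbers were not taken to pair libraries. A block with the cph1-delta numbers exchanged, chosen after seeing the data, called 389 genes, 333 higher and 56 lower, and 10 between cph1-delta and cph2-delta.

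Libraries of a strain differed by more than counting error, and what limited the number of calls was not tested. Genes with a few counts per library, such as SPAC186.02c and SPAC750.06c, have the least certain fold changes.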
